A study of Homo sapiens with 13 samples.

Results

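The Notch receptors NOTCH1, NOTCH2, NOTCH3 and NOTCH4, the ligands DLL1, DLL4, JAG1 and JAG2, and the Fringe glycosyltransferases LFNG and MFNG were followed in small cell lung cancer (SCLC) cells exposed to FHD-286, a compound that blocks the ATPases SMARCA4 and SMARCA2 of the SWI/SNF chromatin remodeling complexes. These 10 genes were taken by symbol from tables of 56831 listed genes, and all 10 were found. RNA sequencing had been performed on 2 established human SCLC lines, H82 of the SCLC-N subtype, which is marked by the neuronal factor NEUROD1, and H146 of the SCLC-A subtype. H82 cells without drug (3 libraries) were compared with H82 cells given 100 nM FHD-286 for 14 days, the drug being renewed every 48 h (3 libraries). H146 cells without drug (3 libraries) were compared with H146 cells given the same dose for the same time (4 libraries). All 13 libraries carry the label WT for genotype. Each line is a single cultured model, and the labels do not say that the libraries of a group came from separate cultures, so p-values measure the spread between libraries, which may be technical.

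Notch signaling runs between neighboring cells. A Delta-like or Jagged ligand pulls on a Notch receptor of the adjacent cell, ADAM proteases and gamma-secretase then cut the receptor, and the freed intracellular domain enters the nucleus and joins RBPJ and Mastermind-like proteins to switch on HES and HEY genes. Fringe enzymes add sugar to the extracellular repeats of the receptor and thereby shift its preference among ligands. Neuroendocrine SCLC usually keeps the pathway low and makes much DLL3, an unusual ligand that acts inside the cell.

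Values were deposited as TPM, transcript abundance corrected for transcript length and scaled to a fixed total in each library, so that levels can be set beside each other between genes. TPM does not keep the number of reads, and the depth behind each value is unknown. H82 libraries held 21227 to 21772 genes at 1 TPM or more without drug and 15554 to 16633 with it, whereas H146 libraries held 17476 to 17965 without drug and 18778 to 19309 with it. The mitochondrial share of TPM also differed with treatment, at 22.1% to 24.1% in untreated and 12.3% to 14.9% in treated H82, and at 7.56% to 8.86% in untreated and 3.82% to 11.4% in treated H146, and its part in the results was not tested. All 5 neuroendocrine markers checked (SYP, CHGA, NCAM1, INSM1 and NEUROD1) reached 1 TPM in every H82 library, and 4 of the 5 did in every H146 library. Their mean levels in H82 without and with drug were 202 and 46.8 TPM for SYP, 143 and 32.6 TPM for CHGA and 230 and 83.6 TPM for NEUROD1. They were 52.9 and 64.2 TPM for NCAM1 and 14.4 and 121 TPM for INSM1. In H146 the means were 85.5 and 71.6 TPM for SYP, 118 and 109 TPM for CHGA and 51.0 and 55.8 TPM for NCAM1. They were 1230 and 870 TPM for INSM1 and 0.393 and 0.317 TPM for NEUROD1. Replicate 2 of treated H82 stood apart from its group in some cell type markers, but not over all genes. There it correlated at 0.983 with replicate 3 (Pearson r of log2(TPM + 1)). Replicate 1 was the more distant library, at 0.965 with replicate 2 and 0.971 with replicate 3. The 5 epithelial markers of replicate 2 summed to 114 TPM, against 15.7 and 9.17 TPM in the other treated H82 libraries. In the untreated ones they summed to 1.57 to 3.61 TPM. INSM1 was at 296 TPM in replicate 2, against 32.1 and 33.9 TPM in the other treated libraries. CHGA (62.5 TPM, against 14.3 and 21.1 TPM) and SYP (58.1 TPM, against 31.5 and 50.7 TPM) were highest there as well. Its NEUROD1 and NCAM1 lay between those of the other treated libraries. The fits of the members in H82 are therefore also given without replicate 2.

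In untreated H82 cells the receptor RNA was mostly NOTCH2, while all 4 ligands were at 6 TPM or less. LFNG was far above MFNG, and RFNG, the remaining Fringe gene, is not a member and is described further below. NOTCH2 led at 37.1 ± 0.382 TPM (mean ± SD, n = 3 as for every H82 group), followed by LFNG at 24.3 ± 0.774 TPM and JAG2 at 5.19 ± 0.137 TPM, each above the next gene in all libraries. NOTCH1 at 3.59 ± 1.21 TPM, DLL1 at 2.32 ± 1.05 TPM, DLL4 at 2.21 ± 0.714 TPM and JAG1 at 1.20 ± 0.341 TPM came next, and none of these was separated from its neighbor among them. MFNG, NOTCH4 and NOTCH3 stayed below 0.6 TPM and were not separated from each other. After FHD-286, NOTCH2 still led at 25.3 ± 9.05 TPM, DLL1 had moved to the next place at 8.97 ± 2.19 TPM, and LFNG stood at 3.78 ± 1.09 TPM, not separated from JAG1 at 3.46 ± 0.0426 TPM.

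In untreated H146 cells the ligands led. DLL1 was at 175 ± 13.5 TPM (n = 3), JAG2 at 96.0 ± 4.76 TPM and JAG1 at 22.3 ± 5.11 TPM, the last not separated from LFNG at 21.4 ± 6.90 TPM. NOTCH3, at 14.4 ± 1.48 TPM, was the most abundant receptor, followed by DLL4 at 7.71 ± 0.814 TPM and NOTCH1 at 1.60 ± 0.155 TPM. NOTCH4, MFNG and NOTCH2 were below 0.8 TPM. After FHD-286 the order began with DLL1 at 156 ± 42.2 TPM (n = 4) and JAG2 at 27.6 ± 5.52 TPM, and JAG2 was no longer separated from LFNG at 21.5 ± 12.8 TPM. The 2 lines thus carried different main receptors, NOTCH2 in H82 and NOTCH3 in H146.

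**Figure D1:**
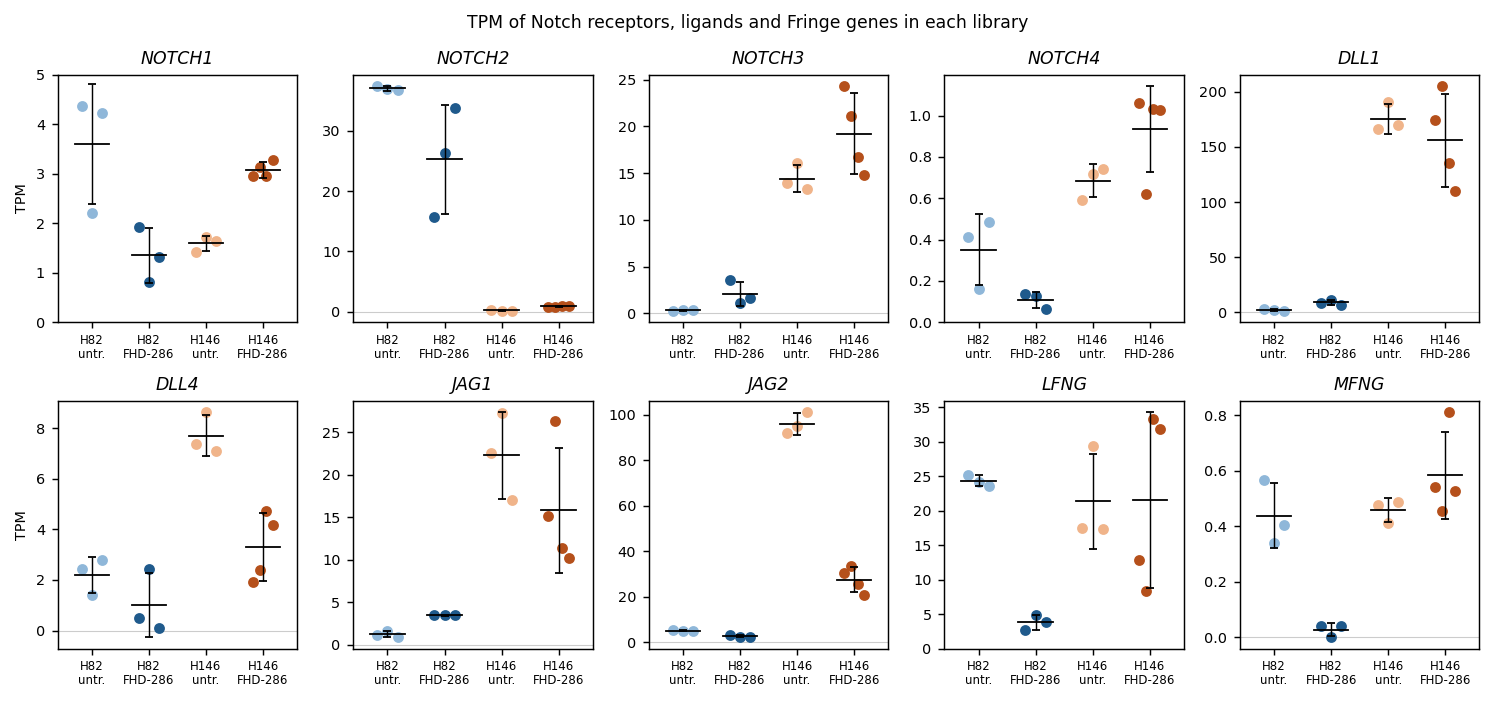
TPM (y axis, linear, own scale for each gene) of the 10 genes in each of the 13 libraries, by line and treatment (x axis); points are libraries, horizontal lines are means and bars are SD (n = 3, and n = 4 for treated H146). LFNG fell from 23.6 to 25.1 TPM to 2.66 to 4.83 TPM in H82 and spread over 8.38 to 33.2 TPM in treated H146, while JAG2 fell in both lines.

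Treated and untreated cells were compared within each line with limma on log2(TPM + 1), for genes that reached 1 TPM in 3 or more libraries of that line, and a gene was called where its p, adjusted by the Benjamini-Hochberg procedure over all genes tested, was under 0.05. Fold changes below are on this scale, which understates changes of low genes. In H82, 8 of the 10 genes passed the filter on low values, NOTCH3 only through its treated libraries, and 3 were called higher (NOTCH3, DLL1 and JAG1) and 3 lower (NOTCH1, JAG2 and LFNG). Since NOTCH3 could enter the fit only by being high in treated cells, its call is given as a value and adds nothing to this count. The background was high: of 19770 genes tested in H82, 58.6% were called, 45.5% lower and 13.1% higher, and the median gene was at -0.56 on the log2 scale. In H146, 8 genes passed, NOTCH4 only through its treated libraries. Of these, 1 was called higher (NOTCH1) and 2 lower (DLL4 and JAG2), where 47.9% of 19585 genes tested were called, 15.5% lower and 32.5% higher, with the median gene at 0.25. The treated and untreated libraries did not overlap for 7 of 8 genes in H82, against 67.8% of all genes tested there, with 3 genes higher (background 16.4%) and 4 lower (51.4%). NOTCH3 is among the 7 and among the 3 higher, and adds nothing to these counts either, since its entry through treated libraries alone fixed that outcome. In H146 the libraries did not overlap for 3 of 8 genes, against 52.9%, with 1 gene higher (background 35.7%) and 2 lower (17.3%). In bulk RNA, fewer cells that carry a transcript and less of it per cell cannot be told apart.

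Because the median gene moved, the tests were repeated after scaling libraries by the median of ratios, which put the median at -0.14 in H82 and -0.02 in H146, and after quantile normalization, which put it at 0.01 and 0.06. The rises of DLL1 and JAG1 and the fall of LFNG in H82, and the falls of DLL4 and JAG2 in H146, were called under all 3 scalings. The falls of NOTCH1 and JAG2 in H82 were not, and the rise of NOTCH1 in H146 was not called after quantile normalization. Over all genes, 77.7% of the H82 calls were lower on the deposited scale, 57.5% after median of ratios and 48.0% after quantile normalization, and 32.3%, 54.1% and 46.8% of the H146 calls were. 

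**Figure D2:**
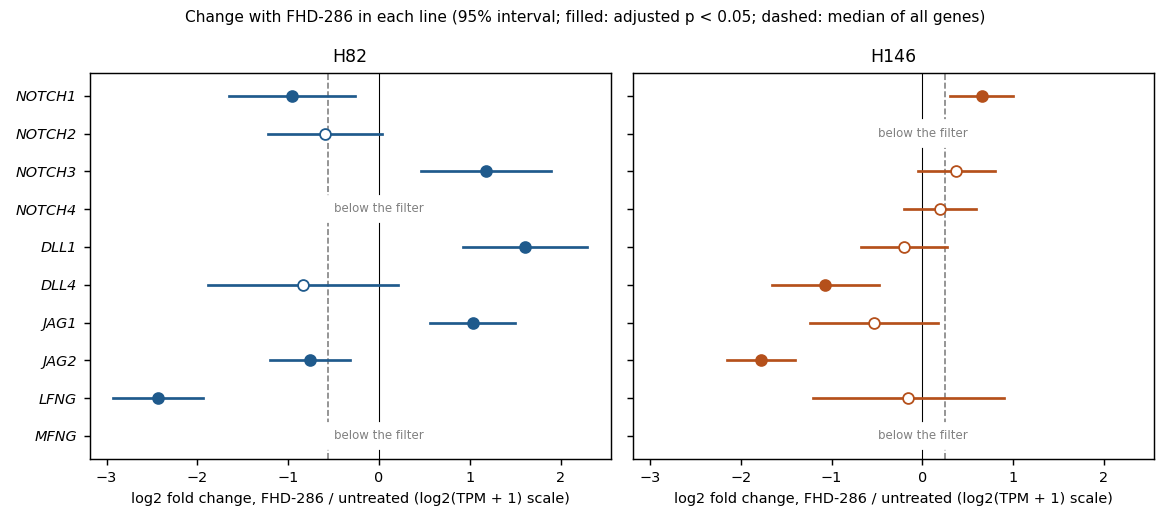
Log2 fold change of treated over untreated cells on the log2(TPM + 1) scale (x axis) for each gene (y axis) in H82 (left) and H146 (right), with 95% intervals from limma; filled points have an adjusted p under 0.05 and the dashed line is the median of all genes tested. LFNG was lowest in H82 at -2.43 and JAG2 lowest in H146 at -1.78, while DLL1 was highest in H82 at 1.61.

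Among the receptors, NOTCH1, the founding human member of the family (ENSG00000148400.13, hg38 chr9:136494433-136546048, minus strand), went opposite ways in the 2 lines on the deposited scale. In H82 it measured 4.36, 2.20 and 4.22 TPM without drug and 1.92, 0.816 and 1.32 TPM with it. The lowest untreated library lay above the highest treated one. NOTCH1 changed there by -0.96 in log2 units (SE 0.29, limma adjusted p = 0.0268). That call was lost when untreated replicate 1 (-0.82, adjusted p = 0.0904), untreated replicate 3 (-0.84, adjusted p = 0.0872), treated replicate 2 (-0.78, adjusted p = 0.0806) or treated replicate 3 (-0.96, adjusted p = 0.0653) was left out, and after median-of-ratios scaling (-0.62, adjusted p = 0.123), and the value was 0.11 (adjusted p = 0.764) after quantile normalization. In H146, NOTCH1 measured 1.42, 1.72 and 1.65 TPM without drug and 2.95, 3.13, 2.95 and 3.27 TPM with it, all treated libraries lying above all untreated ones. It rose by 0.65 (SE 0.15, limma adjusted p = 0.00890), and stood at 0.40 (adjusted p = 0.0650) after quantile normalization.

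NOTCH2, a receptor associated in SCLC with the non-neuroendocrine state (ENSG00000134250.21, hg38 chr1:119911553-120100779, minus strand), was high in H82 and near absent in H146. It measured 37.5, 36.9 and 36.8 TPM in untreated H82 and 15.8, 26.3 and 33.8 TPM in treated H82. All treated libraries lay below the untreated ones, but they spread widely, and the difference of -0.60 (SE 0.26, limma adjusted p = 0.0903) did not pass the test and was close to the median of all genes. It was -0.65 (adjusted p = 0.127) without treated replicate 2, the library that stood apart in its markers, and -0.83 (adjusted p = 0.0285) without treated replicate 3. The NOTCH2NL copies on the same chromosome share sequence with NOTCH2, and how reads were divided among them was not given in the sources used here. The table lists NOTCH2NL at 0.863, 1.53 and 1.24 TPM in untreated H82, at 0.194 to 0.334 TPM in treated H82 and below 0.05 TPM in H146, so NOTCH2 values are uncertain by reads shared with it.

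In H146, NOTCH2 stayed below the filter, at 0.339, 0.160 and 0.145 TPM without drug and 0.850, 0.754, 0.976 and 0.852 TPM with it. The treated libraries were all above the untreated ones. The difference in mean log2(TPM + 1) was 0.62, with p = 0.0286 by a two-sided exact permutation test, the smallest p that 3 against 4 libraries allow, and 0.114 after adjustment over the 4 such tests made.

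NOTCH3, a receptor known from vascular smooth muscle (ENSG00000074181.9, hg38 chr19:15159038-15200995, minus strand), rose in H82 from a low level. It measured 0.245, 0.304 and 0.349 TPM without drug and 3.56, 1.12 and 1.62 TPM with it. Every treated library was above 1 TPM and every untreated one below 0.4 TPM, with treated replicate 1 well above the others of its group. The change was 1.18 (SE 0.30, limma adjusted p = 0.0131), and 1.41 (adjusted p = 0.0104) without treated replicate 2, for a gene that reached the filter through its treated libraries alone. In H146 NOTCH3 measured 13.9, 16.1 and 13.3 TPM without drug and 24.3, 21.1, 16.7 and 14.8 TPM with it. The groups overlapped there, and the difference of 0.37 (SE 0.19, limma adjusted p = 0.128) did not pass the test.

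NOTCH4, a receptor known from endothelium (ENSG00000204301.6, hg38 chr6:32194843-32224067, minus strand), was low in both lines. In H82 it measured 0.413, 0.160 and 0.483 TPM without drug and 0.135, 0.128 and 0.0654 TPM with it, below the filter on low values. The treated libraries lay below the untreated ones. The difference in mean log2(TPM + 1) was -0.28, with p = 0.1 by the two-sided exact permutation test, the smallest that 3 against 3 libraries allow. In H146 it measured 0.594, 0.718 and 0.743 TPM without drug and 1.06, 0.623, 1.03 and 1.03 TPM with it. The groups overlapped through treated replicate 2, and the difference of 0.19 (SE 0.17, limma adjusted p = 0.386) did not pass the test. NOTCH4 shares 98 exon bases on the same strand with GPSM3, which reached up to 7.65 TPM, so that its low values are uncertain. Of the endothelial markers PECAM1, CDH5, VWF, KDR, TEK and CLDN5, only CLDN5 reached 1 TPM in any H82 library (12.3 TPM in treated replicate 2), and the list summed to 1.25 to 4.43 TPM in H146.

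As a share of the summed TPM of the 4 receptors, NOTCH2 made up 89.8% ± 3.01 in untreated H82 and 86.1% ± 10.7 in treated H82, and NOTCH3 made up 0.726% ± 0.134 and 8.32% ± 7.20. In H146 NOTCH3 made up 85.2% ± 1.12 (n = 3) without drug and 79.3% ± 4.35 (n = 4) with it, and NOTCH1 9.47% ± 0.875 and 13.1% ± 2.63. The main receptor of each line therefore kept its place. The receptor sum was 41.3 ± 1.54 TPM and 28.9 ± 7.71 TPM in H82, and 16.9 ± 1.55 TPM and 24.1 ± 4.14 TPM in H146.

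**Figure D3:**
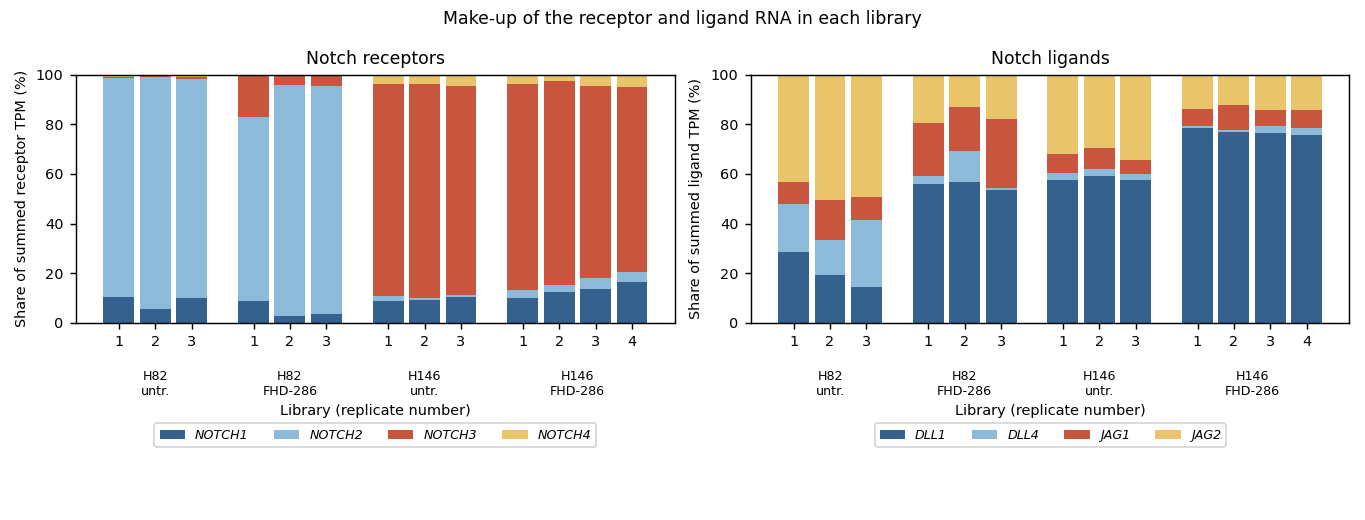
Share of the summed TPM (y axis, percent) taken by each Notch receptor (left) and each of the 4 ligands (right) in every library (x axis, replicate number within group). NOTCH2 fills most of the H82 receptor bars and NOTCH3 most of the H146 ones, and the DLL1 share of the ligands is larger in treated than in untreated libraries of both lines.

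Among the Delta-like ligands, DLL1, a ligand of lateral inhibition in neural progenitors (ENSG00000198719.9, hg38 chr6:170282206-170306565, minus strand), rose in H82. It measured 3.51, 1.93 and 1.52 TPM without drug and 8.93, 11.2 and 6.80 TPM with it. The lowest treated library was above the highest untreated one. The change was 1.61 (SE 0.29, limma adjusted p = 0.00304), and 1.45 (adjusted p = 0.0116) without treated replicate 2. In H146, where DLL1 was far more abundant, it measured 166, 191 and 169 TPM without drug and 174, 205, 135 and 110 TPM with it. Treated replicates 1 and 2 lay among the untreated libraries or above them and replicates 3 and 4 lay below. The difference of -0.20 (SE 0.21, 95% interval -0.67 to 0.27, limma adjusted p = 0.439) did not pass the test. With library weights it was -0.41 (limma adjusted p = 0.0140). Reads from FAM120B, which overlaps 370 of the 3819 exon bases of DLL1 on the opposite strand and reached up to 69.8 TPM, cannot be told apart from DLL1 reads if strand was not used, and that was not given in the sources used here.

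DLL4, a ligand best known from sprouting vessels (ENSG00000128917.8, hg38 chr15:40929340-40939073, plus strand), fell in H146. It measured 7.39, 8.64 and 7.11 TPM without drug and 1.92, 2.40, 4.72 and 4.19 TPM with it. All treated libraries lay below all untreated ones, replicates 1 and 2 further than replicates 3 and 4. DLL4 fell by 1.07 (SE 0.26, limma adjusted p = 0.00991). In H82 it measured 2.42, 1.42 and 2.80 TPM without drug and 0.478, 2.45 and 0.0805 TPM with it. Treated replicate 2, the library that stood apart in its epithelial markers and in CLDN5, lay among the untreated libraries, and the other treated libraries lay below them. The difference of -0.84 (SE 0.44, limma adjusted p = 0.143) did not pass the test with that library and was -1.32 (adjusted p = 0.0131) without it. The part of those markers in the DLL4 value was not tested.

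Among the Jagged ligands, JAG1, a ligand widely expressed in epithelia and vessels (ENSG00000101384.12, hg38 chr20:10637684-10673999, minus strand), rose in H82. It measured 1.07, 1.59 and 0.947 TPM without drug and 3.43, 3.45 and 3.51 TPM with it, and the treated libraries were closely grouped above the untreated ones. The change was 1.03 (SE 0.20, limma adjusted p = 0.00393), and 1.03 (adjusted p = 0.0140) without treated replicate 2. In H146 JAG1 measured 22.6, 27.2 and 17.0 TPM without drug and 15.1, 26.4, 11.4 and 10.2 TPM with it. Only treated replicate 2 lay within the untreated range. The difference of -0.54 (SE 0.31, limma adjusted p = 0.179) did not pass the test, and was -0.80 (adjusted p = 0.0100) without that library. With library weights it was -0.94 (limma adjusted p = 0.000624).

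JAG2, a ligand of epithelial and neural tissue (ENSG00000184916.9, hg38 chr14:105140982-105168824, minus strand), fell in H146 in every library. It measured 91.8, 94.9 and 101 TPM without drug and 30.6, 33.4, 25.4 and 21.0 TPM with it. JAG2 fell by 1.78 (SE 0.16, limma adjusted p = 0.000115), under each scaling tried. The 5 epithelial markers (EPCAM, KRT8, KRT18, KRT19 and CDH1) also moved in sum between these groups, from 2234 to 2404 TPM without drug to 575 to 647 TPM with it. EPCAM and the 3 keratins were lower in every treated library, whereas CDH1 overlapped, at 55.1 ± 8.36 (n = 3) and 65.4 ± 16.6 TPM (n = 4). Their part in the JAG2 value was not tested. In H82 JAG2 measured 5.34, 5.07 and 5.15 TPM without drug and 3.12, 2.58 and 2.29 TPM with it. The groups did not overlap, and JAG2 fell by 0.76 (SE 0.19, limma adjusted p = 0.0108), against a median of -0.56 over all genes. The value was -0.75 (adjusted p = 0.0311) without treated replicate 2, -0.37 (adjusted p = 0.149) after median-of-ratios scaling and 0.21 (adjusted p = 0.369) after quantile normalization. JAG1 and JAG2 each overlap a long noncoding RNA without a symbol in the annotation, whose reads were not separable here.

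Among the 4 ligands followed here, which do not include DLL3, the share of DLL1 was higher in treated than in untreated libraries of both lines, although DLL1 itself rose in H82 only. In H82 DLL1 made up 20.8% ± 7.03 of the 4 ligands without drug and 55.5% ± 1.68 with it, JAG2 47.8% ± 3.97 and 16.9% ± 3.37, and JAG1 11.2% ± 4.05 and 22.2% ± 5.12. In H146 DLL1 made up 58.2% ± 1.01 (n = 3) without drug and 76.9% ± 1.22 (n = 4) with it, and JAG2 31.9% ± 2.40 and 13.8% ± 0.915. The DLL1 shares of treated and untreated libraries did not overlap in either line. The ligand sum went from 10.9 ± 1.24 to 16.1 ± 3.49 TPM in H82 and from 301 ± 17.9 (n = 3) to 203 ± 53.4 TPM (n = 4) in H146. Shares are unchanged by a single factor for each library, as in median-of-ratios scaling, but not by quantile normalization, after which they were not computed. A share also rises when other members fall, and no test was made on the shares.

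LFNG, which extends O-fucose on Notch repeats with N-acetylglucosamine (ENSG00000106003.14, hg38 chr7:2512529-2529177, plus strand), showed the largest change of the 8 genes tested in H82 on the log2(TPM + 1) scale, whereas DLL1 did after quantile normalization. As a ratio of mean TPM, LFNG was 6.44-fold lower and NOTCH3 7.02-fold higher. It measured 25.1, 24.2 and 23.6 TPM without drug and 2.66, 4.83 and 3.84 TPM with it. The untreated libraries were closely grouped, and every treated one was far below them. LFNG fell by 2.43 (SE 0.21, limma adjusted p = 0.000228), and by 2.59 (adjusted p = 0.000806) without treated replicate 2. In H146 it measured 17.4, 29.3 and 17.3 TPM without drug and 12.8, 8.38, 33.2 and 31.8 TPM with it. Treated replicates 1 and 2 lay below every untreated library and replicates 3 and 4 above every one, so the treated group had no common direction. The difference of -0.15 had a 95% interval of -1.21 to 0.90 (SE 0.46, limma adjusted p = 0.801). Treated H146 replicates 3 and 4 correlated at 0.991 over all genes and replicates 1 and 2 at 0.984, against 0.970 to 0.983 across these pairs (Pearson r of log2(TPM + 1), as a description), and the labels name no batch that would separate them.

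MFNG, the Fringe enzyme known mostly from blood cells (ENSG00000100060.18, hg38 chr22:37469063-37486393, minus strand), stayed below the filter in both lines. In H82 it measured 0.567, 0.341 and 0.404 TPM without drug and 0.0393, 0 and 0.0419 TPM with it. The treated libraries all lay below the untreated ones, with a difference of -0.48 in mean log2(TPM + 1) and p = 0.1 by the two-sided exact permutation test, again the smallest possible. In H146 it measured 0.476, 0.410 and 0.488 TPM without drug and 0.542, 0.455, 0.811 and 0.527 TPM with it. The groups overlapped, with a difference of 0.11 (exact permutation p = 0.229, adjusted p = 0.229).

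Short stretches of the reference promoters are shown because LFNG had the lowest log2 fold change in H82 and JAG2 in H146, and because E-boxes are the sites of basic helix-loop-helix factors such as NEUROD1, and TGGGAA is the core of the site known for RBPJ. The windows are 30 bases of RefSeq sequence (GRCh38) within 250 bases before to 50 bases after a start, printed 5' to 3' on the strand of the gene, with the match in capitals. Of the 10 genes, 8 had a promoter entry, LFNG having 2. The E-box was searched as CAGNTG and the RBPJ core as TGGGAA, on both strands, and no match of the one overlapped a match of the other.
LFNG E-box, chr7:2512313-2512342, plus strand: gcaagtccctagCAGATGgcgtgcacagaa
LFNG RBPJ core, chr7:2512512-2512541, plus strand: ctctgcaaatccTTCCCAgactaagctgca
LFNG RBPJ core at the other start, chr7:2517613-2517642, plus strand: ccTGGGAActgtggggagatggactcacag
LFNG E-box at the other start, chr7:2517639-2517668, plus strand: acagcatcttgtCAGGTGgggtgcagggtg
JAG2 E-box, chr14:105168795-105168824, minus strand: ctcatgcatatgCAGGTGcgcgggtgacga
NOTCH4 E-box, chr6:32224208-32224237, minus strand: ctcccctcctatCACCTGccctccaggcac
E-boxes were found in 4 of the 9 entries (both of LFNG, JAG2 and NOTCH4), and in 49.9% of all 35116 promoters. The RBPJ core was found in 2 of the 9 entries, both of LFNG, and in 24.0% of all promoters. A match is a description of letters and not a site bound in these cells.

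The response of a gene was compared between the lines in a single fit over all 13 libraries, as the log2 fold change in H146 minus that in H82. Of 23676 genes tested, 60.2% were called, 13.7% lower and 46.5% higher, with a median of 0.73. Among the 9 members tested, 3 were called higher (NOTCH1, NOTCH2 and LFNG) and 3 lower (DLL1, JAG1 and JAG2). LFNG differed by 2.28 (SE 0.58, limma adjusted p = 0.00497), having fallen in every treated H82 library and gone both ways in treated H146. NOTCH1 differed by 1.61 (SE 0.31, limma adjusted p = 0.000773) and NOTCH2 by 1.21 (SE 0.31, limma adjusted p = 0.00464), and of these the first was 0.34 (adjusted p = 0.368) after quantile normalization and the second 0.63 (adjusted p = 0.0746) after median-of-ratios scaling. The change of NOTCH2 passed its own test in neither line, and in H146 its values were low and below the filter. DLL1 differed by -1.81 (SE 0.35, limma adjusted p = 0.000842) and JAG1 by -1.57 (SE 0.40, limma adjusted p = 0.00475), against the direction of the median gene. JAG2 differed by -1.02 (SE 0.23, limma adjusted p = 0.00208), having fallen further in H146. The differences for NOTCH3 (-0.80, adjusted p = 0.0709), NOTCH4 (0.47, adjusted p = 0.0550) and DLL4 (-0.23, adjusted p = 0.722) did not pass the test, and MFNG was not tested. The NOTCH3 difference passed it after median-of-ratios scaling (-1.37, adjusted p = 0.0115), after quantile normalization (-1.77, adjusted p = 0.000993), with a pseudocount of 0.1 (-1.92, adjusted p = 0.00499), with library weights (-0.77, adjusted p = 0.00902), without treated H82 replicate 2 (-1.04, adjusted p = 0.0213) and without treated H146 replicate 1 (-0.92, adjusted p = 0.0491). NOTCH4 passed with a pseudocount of 0.1 (1.42, adjusted p = 0.0342), with library weights (0.65, adjusted p = 0.00262), without untreated H82 replicate 2 (0.58, adjusted p = 0.0191) and without treated H146 replicate 2 (0.55, adjusted p = 0.0210), and was -0.25 (adjusted p = 0.304) after quantile normalization. It entered this fit only through its treated H146 libraries, which favors a positive difference, so its calls add no support.

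**Figure D4:**
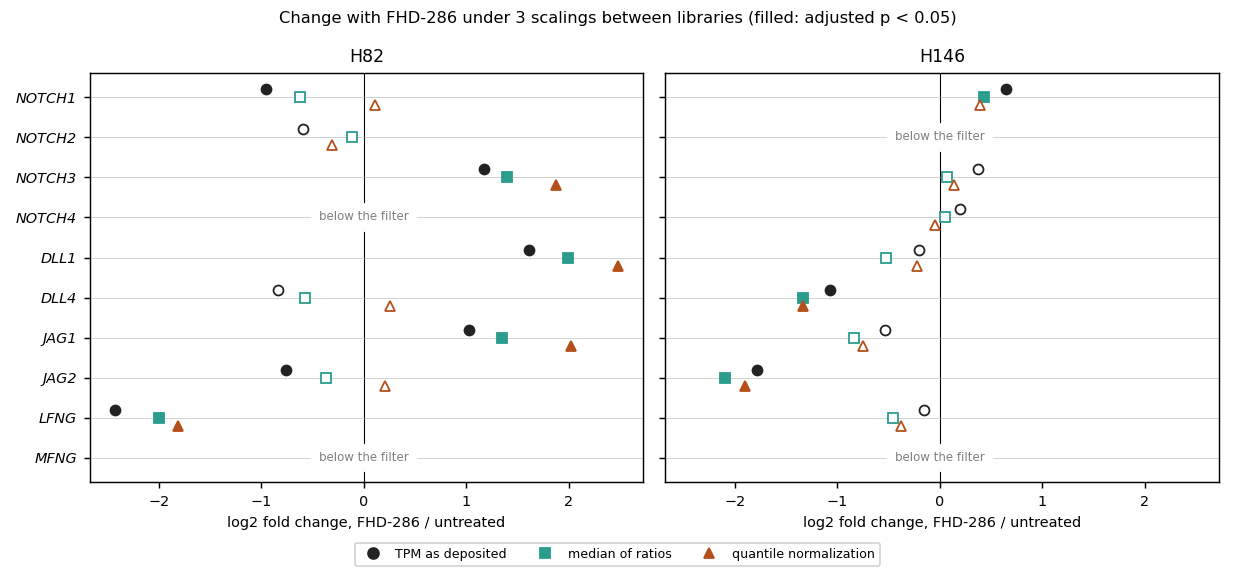
Log2 fold change of treated over untreated cells (x axis) for each gene (y axis) in H82 (left) and H146 (right) with TPM as deposited (circles), after median-of-ratios scaling (squares) and after quantile normalization (triangles); filled symbols have an adjusted p under 0.05. In H82, NOTCH1 went from -0.96 to 0.11 and JAG2 from -0.76 to 0.21 across the scalings, while LFNG, DLL1, JAG1 and NOTCH3 stayed on the same side and filled.

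Of 52 other genes of the pathway, arranged in 8 roles, 49 were tested in H82, where 20 fell and 9 rose, with a median of -0.27, beside 45.5% of all genes lower and 13.1% higher. In H146, 51 were tested, 9 fell and 21 rose, with a median of 0.40, beside 15.5% lower and 32.5% higher. The split moved with the scaling. After median-of-ratios scaling 10 fell and 18 rose in H82, beside 6499 lower and 4793 higher among all genes. After quantile normalization 11 fell and 18 rose there, beside 4859 lower and 5256 higher. In H146, 13 fell and 13 rose after median-of-ratios scaling, beside 4917 lower and 4165 higher. After quantile normalization 12 fell and 16 rose there, beside 4082 lower and 4648 higher. In H82 more of the list rose than fell after median-of-ratios scaling, unlike all genes, and this was not tested. Without treated H82 replicate 2, 18 fell and 6 rose in H82. Nothing particular to the list or to a role is read from these counts. The counts by role below are to be set beside the same shares over all genes, and are on the deposited scale except where another scaling is named.

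Among the other ligands and Fringe genes, DLL3 was the most abundant ligand of H82 among those listed. It measured 104, 89.5 and 121 TPM without drug and 87.3, 159 and 149 TPM with it in H82, where the groups overlapped and the difference of 0.29 did not pass the test (SE 0.25, limma adjusted p = 0.362). It was 0.78 (adjusted p = 0.0261) after median-of-ratios scaling, 0.17 (adjusted p = 0.426) after quantile normalization, 0.56 (adjusted p = 0.0110) without treated replicate 1 and 0.13 (adjusted p = 0.715) without treated replicate 2. In H146 it measured 63.6, 72.6 and 75.3 TPM without drug and 43.8, 44.3, 47.3 and 49.8 TPM with it, and fell by 0.60 (SE 0.11, limma adjusted p = 0.00341). DLK1, a noncanonical ligand, had the largest fall of this role in H146, by 1.88 (adjusted p = 0.000118), and its relative DLK2 the largest rise, 0.73 (adjusted p = 0.0169), a call that neither other scaling kept (adjusted p = 0.0808 and 0.0719). RFNG, the remaining Fringe enzyme, was at 21.6 ± 2.82 and 19.4 ± 3.99 TPM without and with drug in H82 and at 51.3 ± 2.78 (n = 3) and 53.9 ± 11.6 TPM (n = 4) in H146, with differences of -0.16 (limma adjusted p = 0.521) and 0.05 (limma adjusted p = 0.840). With LFNG lowered, RFNG was thus the most abundant Fringe transcript in treated H82 cells, and it was above LFNG in all H146 libraries.

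Among the enzymes that put sugars on the receptor, 3 of 6 fell and 1 rose in H82, a split that became 1 and 3 after median-of-ratios scaling and 1 and 2 after quantile normalization. The xylosyltransferase GXYLT1 fell by 1.15 (limma adjusted p = 0.00827), whereas its paralog GXYLT2 rose from 0.606 ± 0.0925 to 7.47 ± 2.59 TPM, a change of 2.36 (adjusted p = 0.000443). GXYLT2 passed the filter only through its treated libraries. In H146, 5 of 6 rose and none fell under all 3 scalings, beside 32.5% of all genes higher on the deposited scale, GXYLT1 most, from 15.6 ± 2.27 (n = 3) to 48.8 ± 2.29 TPM (n = 4), a change of 1.60 (limma adjusted p = 6.42e-05).

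Of the 9 genes for receptor cleavage, 3 fell and 3 rose in H82, and 1 fell and 5 rose in H146. Under the other scalings 0 and 2 fell and 3 and 4 rose in H82, and 1 fell and 3 and 4 rose in H146. FURIN, the protease that cuts the receptor on its way to the surface, had the largest rise in H82 (0.96, limma adjusted p = 0.0133), and the gamma-secretase subunit PSEN2 had it in H146 (1.09, limma adjusted p = 0.0107). APH1B, another subunit, had the largest fall in both, -0.94 (adjusted p = 0.00323) in H82, where median-of-ratios scaling gave -0.48 (adjusted p = 0.0583), and -0.58 (adjusted p = 0.0201) in H146.

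The ligases that drive ligand endocytosis, which pulls the receptor open, were called lower in H82 for all 3 tested of 4 listed, and for 2 of them under either other scaling. NEURL1, which passed the filter in H82 only through its untreated libraries, fell most in both lines, from 5.14 ± 1.59 to 0.234 ± 0.182 TPM in H82 (-2.29, limma adjusted p = 0.000516) and from 13.5 ± 0.839 (n = 3) to 1.29 ± 0.398 TPM (n = 4) in H146 (-2.68, limma adjusted p = 2.90e-05), where it was the only 1 of 4 called on this scale. After median-of-ratios scaling 3 of the 4 were called lower in H146, and 2 after quantile normalization. Of 8 genes of receptor trafficking and turnover, 5 fell and none rose in H82, FBXW7, which marks the cut receptor for destruction, falling most (-1.06, limma adjusted p = 0.00590). After quantile normalization 2 fell and 3 rose there, and FBXW7 was at -0.31 (adjusted p = 0.308). In H146, 1 fell, DTX2 (-0.90, limma adjusted p = 0.00503), and 2 rose, NUMBL, a relative of the Notch antagonist NUMB, rising most (1.53, limma adjusted p = 0.000721).

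Among 7 genes of the nuclear complex, 3 fell and 1 rose in H82, and 1 fell and 3 rose in H146. EP300, the acetyltransferase recruited by Mastermind-like proteins, was lower in H82, at 55.6 ± 2.85 and 17.8 ± 6.82 TPM (-1.67, limma adjusted p = 0.00262), and higher in H146, at 7.28 ± 3.04 (n = 3) and 31.0 ± 9.45 TPM (n = 4), a change of 1.98 (limma adjusted p = 0.00155), and it kept these directions and calls under all 3 scalings. SNW1, an RBPJ-binding cofactor, went the other way in each line, with 0.48 (adjusted p = 0.0338) in H82 and -0.51 (adjusted p = 0.0176) in H146. Of 5 corepressors of RBPJ, 2 fell and 1 rose in H82, with SPEN at -1.87 (limma adjusted p = 0.00113) and TLE1 at 1.37 (adjusted p = 0.00222), and 1 fell and 2 rose in H146, with CIR1 at -0.59 (adjusted p = 0.0116) and SPEN at 0.72 (adjusted p = 0.0302). The SPEN rise in H146 was not called under either other scaling (adjusted p = 0.132 and 0.0543), and the SNW1 rise in H82 was not called without treated replicate 2 (adjusted p = 0.112).

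Of 9 target genes, 8 were tested in each line. In H82, 3 rose and 1 fell, and in H146, 3 rose and 2 fell. Under either other scaling 5 rose and 1 fell in H82, and 2 rose and 3 fell in H146. HES6, a listed gene that opposes HES1, is among the rises in H82 and the falls in H146, so the counts do not measure Notch output. HES1, a repressor of neural genes and a canonical target, measured 1.95, 1.51 and 1.89 TPM without drug and 3.998, 8.28 and 7.98 TPM with it in H82, and rose by 1.43 (SE 0.28, limma adjusted p = 0.00458), and by 1.27 (adjusted p = 0.0166) without treated replicate 2. In H146 it measured 6.51, 7.40 and 6.27 TPM without drug and 16.2, 9.35, 32.3 and 39.8 TPM with it, and rose by 1.52 (SE 0.43, limma adjusted p = 0.0188), a call lost without untreated replicate 1 (adjusted p = 0.0591) or untreated replicate 3 (adjusted p = 0.0707). The treated libraries were above the untreated ones in both lines, and treated H146 replicates 3 and 4, which had the high LFNG values, had the high HES1 values as well.

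HEY1, the related repressor, measured 19.9, 24.2 and 19.9 TPM without drug and 83.7, 70.9, 81.2 and 85.6 TPM with it in H146. It rose there by 1.87 (SE 0.13, limma adjusted p = 2.40e-05), the largest rise of the role. In H82 it was at 8.81 ± 0.802 and 13.2 ± 4.79 TPM, and the difference of 0.47 (limma adjusted p = 0.193) did not pass the test. It was 0.92 (adjusted p = 0.0233) after median-of-ratios scaling, 1.10 (adjusted p = 0.00995) after quantile normalization, 0.78 (adjusted p = 0.00449) without treated replicate 1 and 0.26 (adjusted p = 0.477) without treated replicate 2. HEYL had the largest fall in H82, -1.13 (limma adjusted p = 0.000880). HES6, which opposes HES1 and is itself a neuroendocrine gene, had the largest fall in H146, from 1018 ± 125 (n = 3) to 151 ± 31.6 TPM (n = 4), or -2.76 (limma adjusted p = 2.51e-05). NRARP, a direct target and feedback inhibitor, was at -0.27 (adjusted p = 0.309) in H82 and 0.18 (adjusted p = 0.368) in H146 and was called in neither.

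**Figure D5:**
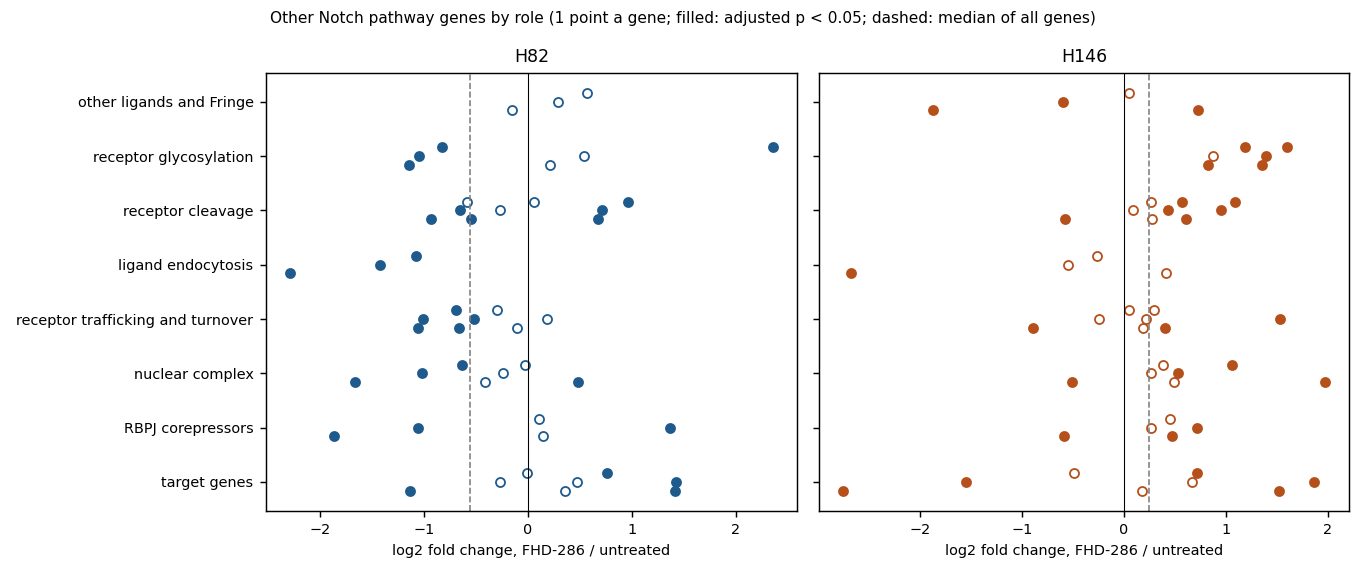
Log2 fold change of treated over untreated cells (x axis) for the other pathway genes tested, grouped by role (y axis), in H82 (left, 49 genes) and H146 (right, 51 genes); each point is a gene, filled where its adjusted p is under 0.05, and the dashed line is the median of all genes. NEURL1 lies far left in both lines, at -2.29 and -2.68.

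The genes whose pattern over the 13 libraries was most like each member were described among 15679 genes that passed the filter in both lines. The libraries share line and treatment, which any gene that differs between the lines will follow, so the coefficients (Pearson r of log2(TPM + 1)) are descriptions only. For NOTCH1 they were CTB-50L17.16 (0.945) and TAF1C (0.934), and for NOTCH3 CA11 (0.996) and STX7 (0.992). For DLL1 they were NOVA1 (0.995) and PRKCA (0.993), and for DLL4 SLC37A1 (0.942) and PTK2B (0.933). JAG1 was followed most closely by CTNNA1 (0.987) and NCOA7 (0.983), and JAG2 by TJP3 (0.993) and FAM160A2 (0.990). LFNG was nearest to SPNS2 (0.953) and RIMKLA (0.952).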

How the data were processed

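TPM tables of H82 and H146 were used as the authors deposited them: reads had been trimmed with Trim Galore 0.4.4, aligned with STAR to hg38 and assigned to GENCODE release 28, and libraries were made by a commercial provider. Strand use, gene lengths and depth are not given in the sources used here, and a symbol was taken as the table lists it. The authors compared groups with DESeq2, which needs counts. Here limma 3.58.1 (R 4.3.3, empirical Bayes with trend, two-sided) was fitted on log2(TPM + 1) to genes at 1 TPM or more in at least 3 libraries of a line, with treatment as the only term, and the difference between lines was an interaction over 13 libraries. Members below the filter were tested by exact permutation. The fits were tested on simulated data. Groups came from the labels.

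The 10 members and all gene lists were chosen with earlier results of these data known. All members were named. For each of 8 pathway roles the largest called rise and fall in a line were named, with DLL3, RFNG, HES1, HEY1, NRARP and NOTCH2NL in any case, and the 2 genes of highest correlation with each member. Further genes were named as sequence overlaps or cell type markers. The fibroblast markers (COL1A1, COL1A2, DCN, LUM and PDGFRB) summed to 1.70 to 2.50 TPM in untreated and 7.92 to 33.3 TPM in treated H82, and to 6.52 to 8.64 and 12.6 to 19.6 TPM in H146. A further list of cell type markers is not reported here. No pair of libraries was a duplicate. Locations came from GENCODE release 44 (hg38) and promoters from RefSeq. Pseudocount, filter, scaling, trend, library weights, replicate block and the leaving out of libraries were varied.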

Additional observations from a re-analysis of the deposited data

Results flagged for a closer look

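The response of 6 members differed between the lines by the interaction test of limma: LFNG by 2.28, NOTCH1 by 1.61 and NOTCH2 by 1.21 toward H146, and DLL1 by -1.81, JAG1 by -1.57 and JAG2 by -1.02 toward H82, where the median of all genes was 0.73. These were 6 of 9 members tested, beside 60.2% of all 23676 genes called in the same test. NOTCH2 was below the filter on low values in H146. NOTCH4 in treated H146 held a library far from the others: replicate 2, at 0.623 TPM, lay apart from libraries at 1.03 to 1.06 TPM, with a gap of 0.926 of the group's range. Chance gives a gap past the limit used for flagging in about 1 in 20 groups, and only this group of 4 libraries could be checked for each member.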

How the results depend on the processing

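After median-of-ratios scaling 1 member fell in H82, beside 6499 lower and 4793 higher among all genes. All genes called under it were 4917 lower and 4165 higher in H146 and 6236 lower between lines. The median of all genes in H146 was -0.023. RFNG was 0.31, -0.27 and -0.58 and NRARP 0.21, -0.13 and -0.34 in H82, H146 and between lines. HES1 was -0.59 between lines. After quantile normalization 1 member fell in H82, beside 4859 lower and 5256 higher among all genes. In H146, 0 members rose (the call for NOTCH1 being lost), beside 4082 lower and 4648 higher among all genes. Between lines 6156 genes were lower and 6174 higher, and the H82 median was 0.0079. NOTCH1 was 0.11, DLL4 0.25 and JAG2 0.21 in H82, and NOTCH4 was -0.051 in H146 and -0.25 between lines. RFNG was 0.27, -0.090 and -0.35 in H82, H146 and between lines. NRARP was 0.11 in H82 and -0.087 between lines, and HES1 was -1.02 between lines. With library weights 3975 genes rose in H82, and 4806 genes and 4 members (DLL1, DLL4, JAG1 and JAG2) fell in H146. LFNG was 0.49 and RFNG -0.0019 in H146 and DLL4 0.27 between lines. With a pseudocount of 0.1, DLL4 was 0.51 and HES1 -0.17 between lines. Without a filter 2 members rose in H146, and the count over all genes under that setting is not given here. The log2 ratios of mean TPM were -1.68 for NOTCH4 and -4.01 for MFNG in H82, and 2.00 for NOTCH2 and 0.35 for MFNG in H146.

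With the replicate block 0 members rose in H146 (NOTCH1 was at 0.63, adjusted p = 0.0744) and HES1 was -0.20 between lines. The count over all genes with the block is not given here. The numbers did not pair the samples: same-numbered libraries deviated with correlations of -0.0378 to 0.027 in H82 and -0.111 to 0.0108 in H146.

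Leaving out each library gave 2 to 3 members lower and 3 higher in H82 (7617 to 9955 and 1882 to 3820 of all genes), 2 to 3 lower and 1 higher in H146 (2222 to 3741 and 4404 to 7561), and 3 to 4 lower and 3 to 4 higher between lines (2854 to 3576 and 9996 to 11436). Below the filter the H82 differences were -0.38 to -0.21 for NOTCH4 and -0.53 to -0.42 for MFNG, and the H146 ones 0.57 to 0.69 for NOTCH2 and 0.05 to 0.15 for MFNG. LFNG in H146 was 0.09 without untreated replicate 2, 0.01 without treated replicate 1 and 0.20 without treated replicate 2. RFNG in H82 lay between -0.29 and 0.00084 and in H146 between -0.077 and 0.17, each reversal being without treated replicate 2. Between lines DLL4 was 0.25 without treated H82 replicate 2, and HES1 ranged from -0.20 to 0.46, at -0.19 without treated H82 replicate 1 and -0.099 and -0.20 without treated H146 replicates 3 and 4. The causes were not tested.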
